A study of Zea mays with 229 samples.

Results

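The genes listed as responding to EREB115 were examined in the authors' deposited table of regulator-to-target edges for maize leaf protoplasts. Members were all distinct targets of the regulator Zm00001d021208, the identifier that the sample titles give to the EREB115 plasmid. There were 2744 such genes among the 19787 genes listed for any of 23 regulators, or 13.9%. EREB115 libraries numbered 6, of which 3 were treated with nitrogen (plusN) and 3 without (minusN), all in batch 20210524. That batch also held 8 empty vector (EV) libraries, 4 per nitrogen condition, besides libraries of the G2 and Orphan42 plasmids. All cells were B73 protoplasts, leaf cells stripped of their walls, taken from seedlings kept in the dark before harvest. Cells received the p1107 plasmid with or without a factor and were sorted by red fluorescence, so the results describe transfected cells in isolation and not an intact leaf.

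EREB proteins belong to the AP2/ERF family of plant transcription factors, which contact DNA through the AP2 domain. Members of the ERF branch typically recognise the GCC box and those of the DREB branch the dehydration-responsive element. As a family they are known for responses to ethylene, abscisic acid, jasmonate, cold, drought and pathogens. The files and labels say nothing on the role of EREB115 itself.

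An edge in this table is a pair of identifiers with no value attached. A listed target may therefore have risen or fallen, in either nitrogen condition or in both, and neither the size nor the error of its response is known. Differences between lists below are descriptions, without a test over libraries. The length of a list depends on thresholds and read depth, and neither is stated by the sources at hand. No level of any leaf marker could be checked, since the table holds no expression values. The EREB115 gene itself was among its own targets. A transcript made from the plasmid can be counted as that gene, so this edge shows no self-regulation. It is also a weak check on the label, because 13 of the 22 other regulators list the EREB115 gene too. NAC109, used below, is the 1 regulator whose own gene was not in its list.

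EREB115 had a list of moderate length with few private members. Its 2744 targets placed it 16th of 23 regulators, just after bHLH47 with 2874 and MYB81 with 2860, and ahead of GLK44 with 2212. Private targets, those in no other list, numbered 100, or 3.64% of the EREB115 list. Across the 23 lists the private share ran from 0% to 11.5%, with a median of 2.66%. In 9 lists the share was higher than that of EREB115, and the shortest of these was the Orphan42 list with 4002 genes. Among lists of like length, bHLH47 had 93 private targets (3.24%), whereas MYB81 had 32 (1.12%) and GLK44 had 20 (0.904%). EREB115 thus had a larger private share than any list shorter than its own, the highest of those being 0.981% for NAC66.

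**Figure D1:**
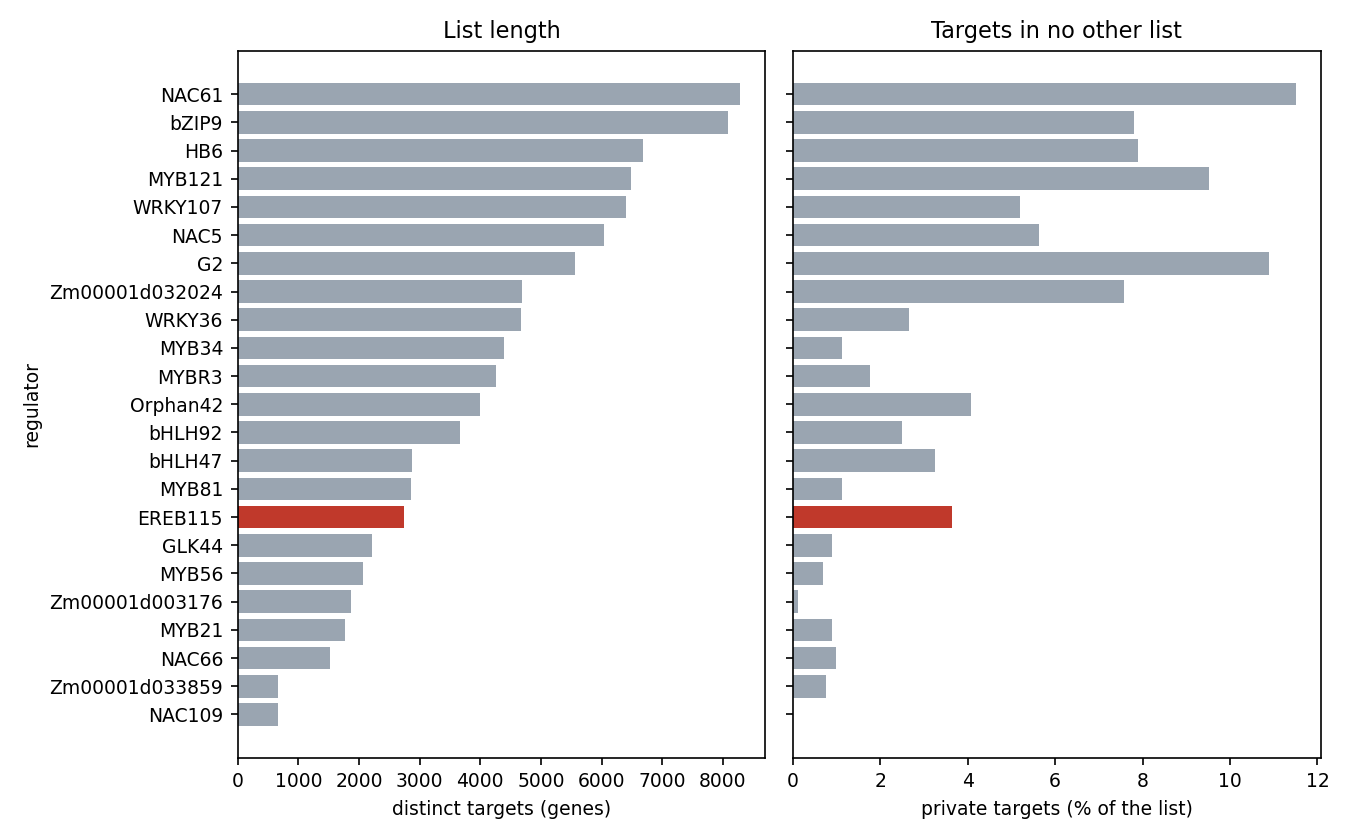
Number of distinct targets per regulator (left, genes) and the percentage of each list found in no other list (right), with regulators ordered by list length and EREB115 in red. EREB115 has 2744 targets and a private share of 3.64%, above the 7 shorter lists.

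The private count depends on the lists it is set against, and leaving lists out can only keep or raise it. Leaving out 1 other list at a time gave 100 to 123 private targets. The highest value came without Orphan42, and the next, 122, without MYB121. Without both G2 and Orphan42, which have libraries in the batch of EREB115, 142 targets (5.17%) were in none of the other 20 lists. If each factor was compared with the empty vector of its own batch, an assumption that the labels neither state nor contradict, those 20 lists share no control library with EREB115. Of the private genes, 15 had an identifier directly next to that of another EREB115 target, and no private identifiers were next to each other. By identifier order the first private target was Zm00001d001973, to which the files give no name.

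Most EREB115 targets also stood in several other lists. The median target was held by 7 of the other 22 lists, with quartiles of 4 and 11. Listed genes outside the EREB115 list were held by a median of 3 others, with quartiles of 1 and 5. These other genes are in the table only because at least 1 other regulator lists them, whereas an EREB115 target needs no other list. Among regulators a median of 7 other lists was just below the middle value of 8. Of the 23 lists, 13 had a higher median, and the range was 5 to 12. Longer lists tended to have lower medians, with 5 for NAC61 and 12 for Zm00001d033859. The lists nearest in length had medians of 8 (bHLH47) and 9 (MYB81).

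EREB115 listed a larger share of genes that many other lists hold. It was 5.03% of the 10836 genes held by 1 to 3 other lists and 15.9% of the 4797 genes held by 4 to 7. For genes in 8 to 11 other lists it was 28.3%, for 12 to 16 it was 37.9%, and for 17 to 22 it was 49.2%, or 121 of 246 genes. The other 125 of these 246 genes were outside the EREB115 list. The genes outside the EREB115 list with the most regulators were Zm00001d033517 and Zm00001d038320, which were in every list except those of EREB115 and MYB21. The files give no name for either gene.

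**Figure D2:**
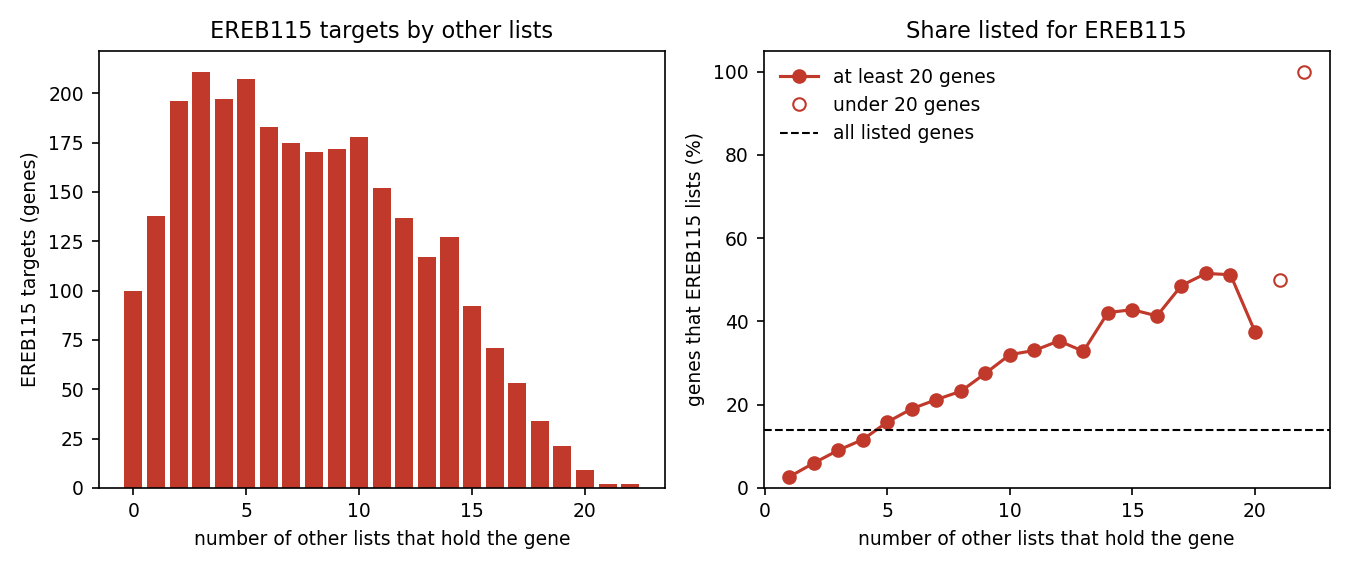
Left, number of EREB115 targets (genes) by how many of the other 22 lists hold them, with 100 at 0. Right, percentage of genes that EREB115 lists at each number of other lists, with the dashed line at the 13.9% of all listed genes and open circles for bins of under 20 genes. The share rises from 2.65% at 1 other list to 51.5% at 18, and is 37.5% at 20.

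Recurrence was also counted over batches, using the 17 regulators that the titles tie to 7 other batches. The median EREB115 target was listed in 4 of the 7 batches, and the median listed gene in 2. In all 7 batches, 108 EREB115 targets (3.94%) were listed, out of 263 such genes (1.33% of all listed genes). In none of them were 150 targets (5.47%) listed, beside 6.83% of all listed genes. In 5 of the batches 471 EREB115 targets (17.2%) were listed, beside 7.35% of all listed genes. The 7 batches have empty vector libraries of their own, but which libraries each list was compared with is not stated. Genes held by more lists also tend to be in more batches, and the part of this in the difference was not tested.

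How many targets EREB115 shared with each other factor was counted for the 20 regulators without a library in its batch. G2 and Orphan42 were left out of these counts, because they have libraries in the batch and so may share its empty vector libraries as controls. G2 also had libraries in another batch with empty vector libraries of its own. The labels do not say which of them its list draws on. Their own lists had 5569 and 4002 genes. The lists sharing the largest part of the EREB115 list were the longest ones. bZIP9 held 1624 EREB115 targets (59.2% of the EREB115 list, 20.1% of its own) and NAC61 held 1532 (55.8% and 18.5%). NAC109, whose list is the shortest, held 193 (7.03% and 29.3%).

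Read as a share of the other list, the order was nearly the reverse. EREB115 listed 36.2% of the Zm00001d033859 targets (240 of 663) and 34.8% of the MYB21 targets (617 of 1772). The next were GLK44 with 30.2% and Zm00001d003176 with 30.1%, followed by MYB81 with 29.9% and MYB56 and bHLH92 with 29.8% each. NAC61 was lowest. All 20 shares lay above the 13.9% of all listed genes and above the 18.1% of genes with at least 2 regulators. Any list draws more on often-listed genes than the pool of listed genes does, and EREB115 listed a larger share of those. Shares above the pooled values are therefore no sign of a tie to any single factor. The genes of short lists were also held by more other lists, with a median of 12 for Zm00001d033859 and 10 for MYB21 against 5 for NAC61, and the part of this in the order was not tested.

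Genes with few regulators were therefore looked at on their own, a choice made after the shares were seen. Among genes held by 2 to 4 lists in all, EREB115 listed 28 of the 183 in the MYB21 list, or 15.3%. For the other 19 lists this share ran from 1.57% (NAC66) to 7.6% (bHLH92). Of all 7270 genes held by 2 to 4 lists, EREB115 listed 7.5%. Only MYB21, bHLH92 and bHLH47 (7.54%) lay above that value, and the rest of the 20 lists lay below it. In genes held by 5 to 8 lists MYB21 again had the highest share, 32.1%, ahead of Zm00001d033859 with 25%. In genes held by 9 or more lists it was 4th with 39.3%, in a range of 35.9% to 41.7%. MYB21 is a MYB factor of another batch, and its share was the highest of the 20 lists in both classes of genes with at most 8 regulators but not among genes with more. Of the 28 genes, 19 were also in the list of G2 or Orphan42, which have libraries in the EREB115 batch and may share its controls. A further count placed 13 of the 28 in the bZIP9 list, and none of the 18 other lists compared held more than 2. Seen from the EREB115 side the longest lists held the most, as bZIP9 held 141 (25.9%) and NAC61 119 (21.8%) of its 545 targets in 2 to 4 lists, against 5.14% for MYB21. For genes in only 2 or 3 lists the MYB21 share was 9 of 101, or 8.91%, against 6.58% for bHLH92, and 19 of the 28 genes were in 4 lists.

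**Figure D3:**
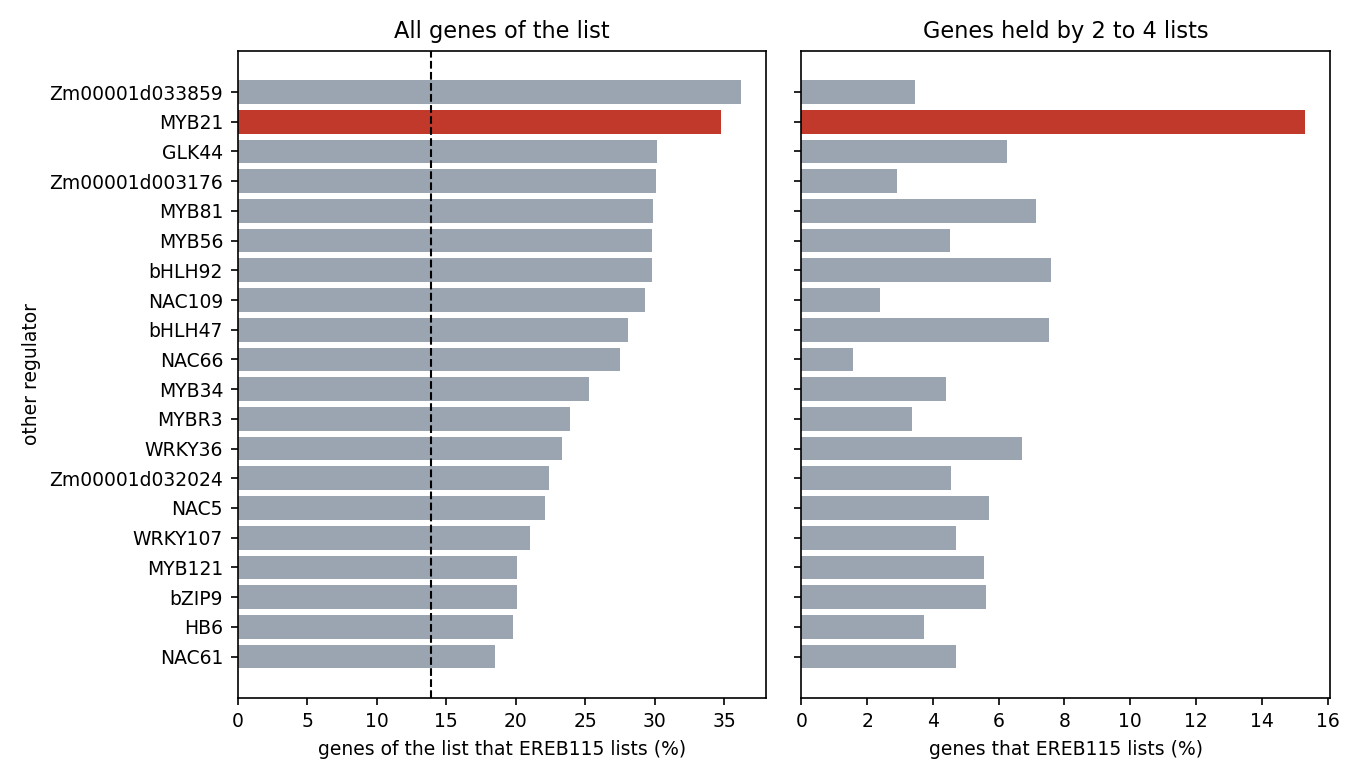
Percentage of each other regulator's list that EREB115 also lists (left, dashed line at 13.9% of all listed genes) and the same percentage for genes held by 2 to 4 lists in all (right), for the 20 regulators with no library in the EREB115 batch. MYB21, in red, has 34.8% and 15.3%, and the next highest value on the right is 7.6%. Of all genes held by 2 to 4 lists, EREB115 lists 7.5%, a value that is no baseline for single lists.

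Exactly 1 other regulator listed 138 EREB115 targets. For 102 of them it was a regulator without a library in the EREB115 batch. MYB121 was the partner for 22, NAC61 and WRKY107 for 15 each, and bZIP9 for 12. These are 4 of the 5 longest lists. HB6, the remaining one of those 5, was the partner for 6, as were NAC5 and bHLH47. No such gene was paired with 7 of the 20 regulators, GLK44 and MYB34 among them.

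The lists were also grouped by family, named from the plasmids of other batches, with 5 MYB, 4 NAC, 2 WRKY and 2 bHLH lists. A further MYB plasmid, ZmMYB38, has no identifier in its titles, so a list of its own could not be recognised or counted here. At least 1 of the 5 MYB lists held 73.6% of the EREB115 targets, where 49.8% of all listed genes were in a MYB list. For the 4 NAC lists the values were 71.6% and 56.4%. WRKY factors, best known from defence responses, gave 59.8% and 41%, and the 2 bHLH lists gave 54% and 27.8%. Genes in both bHLH lists numbered 1041, of which EREB115 listed 421 (40.4%). Genes in both WRKY lists numbered 2947, of which it listed 789 (26.8%). All 5 MYB lists held 208 genes, 86 of them EREB115 targets (41.3%), and all 4 NAC lists held 93, with 37 EREB115 targets (39.8%). Genes in all lists of a family were often-listed ones, held by a median of 17 other lists for MYB and for NAC, 12 for bHLH and 10 for WRKY. At exactly 17, 12 and 10 other lists EREB115 listed 48.6%, 35.3% and 32% of all genes. Shares at nearby numbers differed, with 41.3% at 16 and 51.5% at 18. The genes of a family need not all be at its median. Whether any family value differed from what the number of lists alone gives was not tested.

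The genes with a known identity in the files were the regulators themselves. EREB115 listed 6 of the other 22, or 27.3%, beside 13.9% of all listed genes. These were the NAC factors NAC5 and NAC109, the MYB factors MYB34 and MYB81, the basic helix-loop-helix factor bHLH47, and GLK44, which by its name belongs to the Golden2-like family. The 23 regulators listed 1 to 16 of the others, with a median of 8, and 6 regulators listed fewer than EREB115. Of the lists of like length, bHLH47 listed 3, MYB81 listed 6 and GLK44 listed 7. Between the other 22 regulators, 171 of 462 possible edges (37%) were listed. How common the 6 genes were as targets was counted over the 21 lists left after those of EREB115 and of the regulator itself. NAC5 was in 14 of these, GLK44 in 13, MYB81 in 12, NAC109 in 9, MYB34 in 8 and bHLH47 in 6, with a median of 10.5. The 16 regulators that EREB115 did not list were in 0 to 16, with a median of 6.5, so the groups overlapped.

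Some common regulator genes were missing from the EREB115 list. HB6, a homeobox factor by its name, was listed for 16 other regulators, Orphan42 for 15, Zm00001d032024 for 13, NAC61 for 12 and MYB121 for 11, and none of these genes was an EREB115 target. Of all genes held by 12 to 16 other lists, a regulator's own list included, EREB115 listed 37.9%, and of those held by 17 to 22 it listed 49.2%. Absence was thus the more common outcome for such genes at large, and these absences are no result about the regulators named. The list also lacked the gene of G2, known as Golden2, a regulator of chloroplast development, but only 6 other regulators listed that gene.

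In the other direction the EREB115 gene was a frequent target. It was listed for 13 of the 22 other regulators (59.1%), among them the 7 with the longest lists, NAC61, bZIP9, HB6, MYB121, WRKY107, NAC5 and G2. Of the 15 regulators with shorter lists, 6 listed it. They were MYBR3, bHLH92, bHLH47, GLK44, MYB56 and Zm00001d003176. With NAC5, bHLH47 and GLK44 the edges ran both ways. MYB34, MYB81 and NAC109 were listed for EREB115 without listing it, 10 regulators listed EREB115 without being its targets, and for 6 there was no edge in either direction. MYB21 was among these 6.

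**Figure D4:**
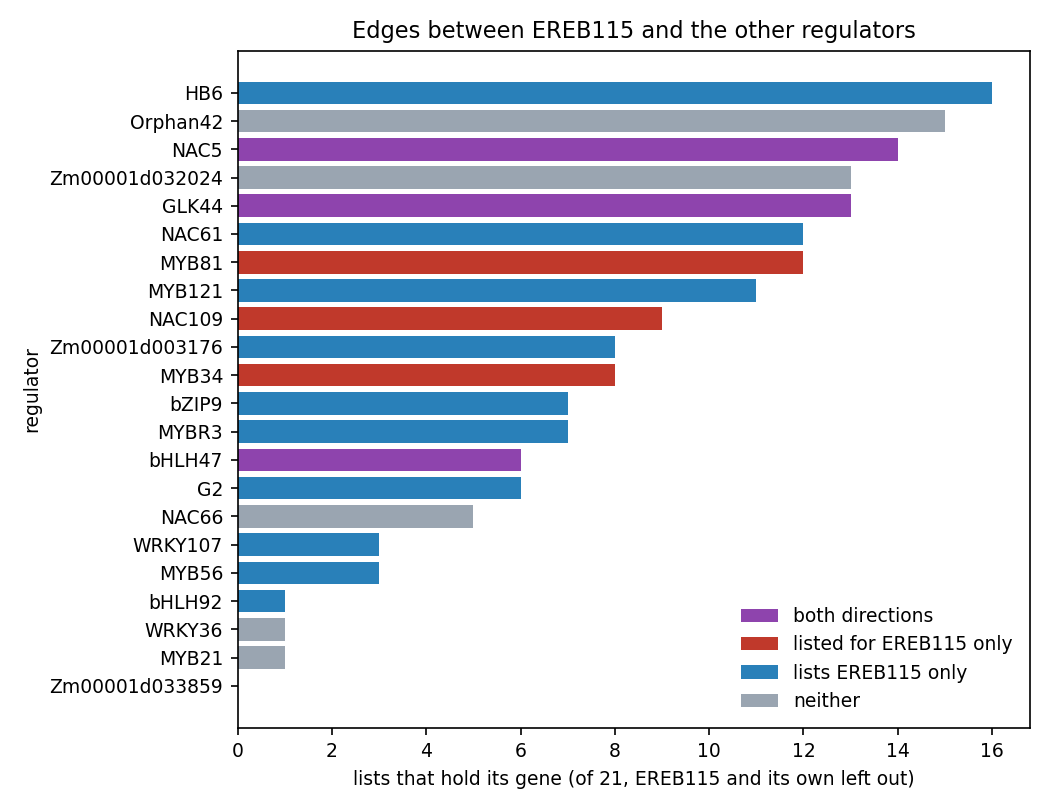
Number of lists that hold each regulator's gene, out of 21 with EREB115 and the regulator's own list left out, coloured by its edges with EREB115. The 6 regulators listed for EREB115 (purple and red) lie at 6 to 14, within the 0 to 16 of the 16 others.

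No target had a name in the reference gene table. All 2744 identifiers had the form used in the B73 RefGen_v4 annotation, and none matched that table, which belongs to another assembly. Gene groups such as ethylene, jasmonate or nitrate genes could therefore not be counted. Of the 5 microRNA genes in the deposited table, EREB115 listed 0, beside 13.9% of all listed genes. With so few genes this count is no result about microRNA genes. Among all listed genes, 131 had identifiers of another form than the EREB115 targets, so EREB115 listed 0 of those 131.

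Targets with neighbouring identifiers were counted as a simple feature that needs no name. Consecutive numbers were found for 204 pairs, which involve 386 targets (14.1%). Per 100 targets there were 7.43 pairs for EREB115, 7.9 for bHLH47, 8.92 for MYB81 and 7.69 for GLK44, so EREB115 was lowest of these 4 lists of like length. No group had more than 4 consecutive identifiers.

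The EREB115 rows stood in 2 separate stretches of the deposited table, of 2548 and 196 genes, with no gene in common. Nothing in the file or labels says what distinguishes them, and no condition was read into them. The longer one held 92.9% of the list, the EREB115 gene itself and the 6 regulator genes. Private targets made up 3.69% of the longer stretch and 3.06% of the shorter, or 94 and 6 genes. The median number of other lists was 7 and 6, so the stretches were alike in both respects. Of the regulators without a library in the batch, 14 also had 2 stretches with their own gene in 1 of them. Shared genes stood in like stretches, both with or both without the regulator's own gene, in 6346 of 13495 cases (47%). This share depends on the sizes of the stretches. The longer one holds 92.9% of the EREB115 list, and own-gene stretches hold 24.1% (HB6) to 90% (bHLH92) of the other lists. The share that these sizes alone would give was not computed, so the 47% is no measure of agreement. The shared genes of the longer EREB115 stretch lay in the other regulator's own-gene stretch more often than those of the shorter one for 9 of the 14 lists, and less often for 5. For bHLH92 the shares were 87.1% and 82.5%, where 90% of its whole list is in that stretch. For Zm00001d033859 they were 33.3% and 72.2%, the second over 18 genes.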

How the data were processed

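RNA was measured in 229 QuantSeq 3' libraries of maize leaf protoplasts, per the labels. The authors deposited text identifiers of a regulator and a target, with no count, fold change or p-value. Per the submitters' processing notes, the authors used featureCounts, edgeR and the build B73 RefGen_v4, without versions, thresholds or the way in which nitrogen conditions were joined. Depth per library is unknown, so no interval is given, and whether replicates were separate preparations is not given.

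Regulators were matched to plasmids by the identifier in sample titles, for 20 of 23. The 3 plasmids without one, ZmMYB38, KN1 and NLP3, have no library in batch 20210524. Lists were compared by counting distinct genes, among genes listed for at least 1 regulator, with Python 3.11.15, pandas 2.3.3, numpy 2.4.6 and matplotlib 3.10.9; scipy 1.17.1 gave the binomial intervals against which alternatives were judged. The counting was tested on simulated lists. No test over libraries was possible. The members and lists were chosen with earlier results of these data known. Genes named were the regulators, the 2 most often listed genes absent from the EREB115 list, and the private target that begins the longest run of consecutive identifiers, by identifier order among ties (every such run held 1 gene). Keyword gene lists and cell type markers could not be applied, because no EREB115 target matched a name in the reference gene table (5 other listed genes, all microRNA genes, did).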

Additional observations from a re-analysis of the deposited data

How the results depend on the processing

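In all, 9 planned results were recomputed. The number of targets (2744) was the same from rows as they stand and from one form of identifier. Private targets numbered 100, and 100 to 142 under all alternatives. Without the longer stretch of Zm00001d003176 there were 100. EREB115 listed 6 regulators with or without G2 and Orphan42, and was listed for 13, or 12 without them. The median number of lists per target, EREB115 included, was 8 in the main count, 7 without G2 and Orphan42 and 8 without the longer stretch of Zm00001d003176, the former because each target can then be in fewer lists. Often-listed targets numbered 817 at a minimum of 12 lists, 1512 at 8 and 121 at 18, which follows from the minimum. The share of listed genes was 13.9%, and 18.1% among genes of at least 2 regulators, since fewer genes are in that background. Consecutive identifiers gave 204 pairs, and 487 when numbers could differ by at most 3, as wider spacing admits more pairs. Shared genes in like stretches made up 47%, and 45.7% without NAC61, 45.5% without bZIP9, 49% without HB6, 47.9% without NAC5, MYBR3 or MYB21, and 43.8% without bHLH92; the cause was not tested. Alternatives chosen after seeing the data put the MYB21 share of rarely listed genes at 15.3% in the main count, 8.91% for genes in 2 or 3 lists, 21.8% for 2 to 6 lists, 21.7% without G2 and Orphan42 and 16.5% without Zm00001d033859, the highest of the lists compared each time. No paired analysis was possible because edges carry no value for any single library, and for the same reason replicates could not be left out. Which genes could be listed is limited by a depth that is unknown here.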
